A study of Mus musculus with 12 samples.

Results

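Macrophages of the splenic red pulp engulf worn-out red blood cells, break down their haem and return the iron to the blood. Heme oxygenase opens the haem ring, biliverdin reductases turn the product into bilirubin, and ferroportin carries the iron out of the cell, while scavenger proteins bind hemoglobin that leaks into plasma. The transcription factor Spi-C is required for these macrophages to form in mice. The expression of 10 genes with these roles (Hmox1, Blvra, Blvrb, Slc40a1, Slc11a1, Spic, Vcam1, Cd163, Hp and Cd5l) was described in mouse spleen, out of 19057 genes measured. They were chosen by symbol, and each gene was represented by the probe with the highest mean over all 12 mice.

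Spleens came from male C57Bl/6J mice, 6 weeks old on arrival, acclimatized for 3 weeks and then fed for 8 weeks. HFD-ED contained 15 g fat per 100 g, of which 10 g was coconut oil, 3 g corn oil and 2 g an oil of eicosapentaenoic and docosahexaenoic acid (EPA and DHA, which are n-3 fatty acids from marine sources). HFD-CO contained the same fat and coconut oil with 5 g corn oil and no EPA or DHA oil. Both high fat diets carried 1 g cholesterol per 100 g, and fat gave 32% of their energy. The control diet had 5 g fat per 100 g, with 2.5 g each of corn oil and coconut oil, no added cholesterol, and 12% of energy from fat. From each diet 4 mice were arrayed, 1 array per mouse, after the authors had selected them by their weight and plasma lipids. Levels below are normalized log2 values, on which a difference of 1 is a doubling for bright probes and a larger true change for dim ones.

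The extraction protocol given to the repository speaks of skeletal muscle, so the tissue was checked against its markers. The B cell gene Cd79b was at 12.32 to 12.99 and the T cell gene Cd3e at 9.51 to 10.62 across the mice, whereas the muscle genes Acta1, Ckm, Myh4, Tnnt3 and Mb stayed between 7.0 and 7.26, near the array median of 7.14. Arrays of the same diet correlated at 0.971 to 0.995. A list of 7 pancreatic acinar genes stood 4.98 above its 12-mouse mean in HFD-CO replicate 4 and 1.59 above it in HFD-CO replicate 1, against -1.0 to 0.30 in the other mice. Without those 2 mice, HFD-CO against control moved by over 1.5 times for some members, whose values are given with them below, and for Cd163 (0.0021), Hp (-0.13), Blvra (-0.0086) and Blvrb (0.089). No member's adjusted p was under 0.999 in that comparison.

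None of the 10 genes passed an adjusted p of 0.05 (limma, Benjamini-Hochberg over 45281 probes) in any comparison. In HFD-ED against control, 6 members were higher and 4 lower, with a median difference of 0.04, against -0.004 over all genes. Of all probes, 0% were called in HFD-ED against control. The share was likewise 0% in HFD-CO against control, and it was 0.00221%, a single probe, when HFD-ED was set against HFD-CO, so 0 members called is what the background gives. At an unadjusted p under 0.05, 3 members stood out in HFD-ED against control, of which Slc40a1 and Spic were lower (7.55% of all genes were lower at that level) and Blvrb was higher (5.69% of all genes). In HFD-CO against control Slc40a1 alone was lower at that level, with a background of 2.88%. In HFD-ED against HFD-CO, Blvrb and Hp were higher, with a background of 6.07%. Both high fat diets were set against the same control mice, so those comparisons are not independent.

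**Figure D1:**
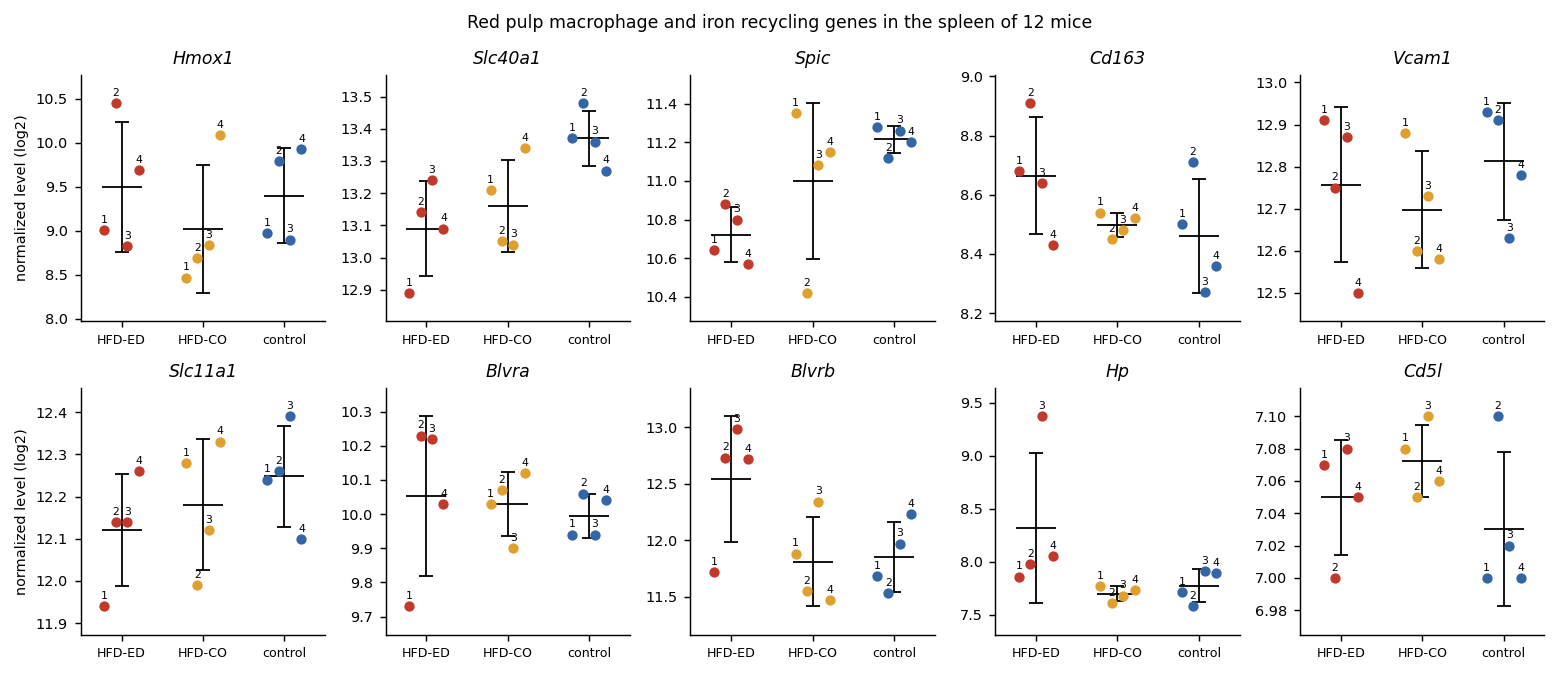
Normalized log2 level of each of the 10 genes (y axis, own scale per gene) in the 4 mice of HFD-ED, HFD-CO and control; numbers are replicates, and bars are mean ± SD. Slc40a1 and Spic are lower in every HFD-ED mouse than in every control mouse, and Hp is set apart by HFD-ED replicate 3 at 9.37.

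Slc40a1 encodes ferroportin, the iron exporter of macrophages. Its levels were 12.89, 13.14, 13.24 and 13.09 in HFD-ED replicates 1 to 4, 13.21, 13.05, 13.04 and 13.34 in HFD-CO, and 13.37, 13.48, 13.36 and 13.27 in control. Every HFD-ED mouse lay below every control mouse, while HFD-CO replicate 4 lay among the control mice. Slc40a1 averaged 13.09 ± 0.15 in HFD-ED, 13.16 ± 0.14 in HFD-CO and 13.37 ± 0.084 in control (SD, n = 4 each). The difference of HFD-ED from control was -0.28 (SE 0.084, 95% confidence interval -0.47 to -0.094), which is 0.824 times the control level. It had an unadjusted p of 0.00696 and an adjusted p of 0.342 in limma, and it did not pass. HFD-CO differed from control by -0.21 (interval -0.40 to -0.026, adjusted p = 1), and HFD-ED from HFD-CO by -0.068 (interval -0.25 to 0.12). Without the 2 HFD-CO mice with high pancreatic genes these were -0.33 (unadjusted p = 0.00483, adjusted p = 0.999) and 0.049. The single other probe for this gene, taken from a separate transcript record, lay near the array median in all mice at 7.09 to 7.15, so it could not be used to check the difference.

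Spic encodes the ETS-family factor Spi-C. Its levels were 10.64, 10.88, 10.80 and 10.57 in HFD-ED replicates 1 to 4, 11.35, 10.42, 11.08 and 11.15 in HFD-CO, and 11.28, 11.12, 11.26 and 11.20 in control. All HFD-ED mice were below all control mice, and the lowest of the 12 was HFD-CO replicate 2, which stood far under the rest of its diet. The difference of HFD-ED from control was -0.49 (SE 0.16, interval -0.85 to -0.13, 0.71 times the control level), with an unadjusted p of 0.0118 and an adjusted p of 0.371 in limma. HFD-CO differed from control by -0.22 (interval -0.58 to 0.14). That value was -0.022 without HFD-CO replicate 2, and -0.47 without the 2 HFD-CO mice with high pancreatic genes (unadjusted p = 0.0167, adjusted p = 0.999), so its size rested on which HFD-CO mice were included. HFD-ED differed from HFD-CO by -0.28 (interval -0.64 to 0.083, adjusted p = 0.648), by -0.47 without HFD-CO replicate 2, by -0.16 without HFD-CO replicate 1, and by -0.024 without the 2 HFD-CO mice with high pancreatic genes.

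A dimmer probe for Spic, on the same transcript record, read 8.42, 8.51, 8.44 and 8.34 in HFD-ED, 9.04, 8.57, 8.64 and 8.59 in HFD-CO, and 8.87, 8.86, 8.64 and 8.85 in control. On this probe the HFD-ED mice lay below all mice of both other diets. Its differences were -0.38 from control (adjusted p = 0.295) and -0.28 from HFD-CO (adjusted p = 0.468), again not past the limma threshold. Without overlap and lower in HFD-ED than in control were 2 of 10 members, Slc40a1 and Spic, against 3.49% of all genes. That share includes dim genes, and the share among bright genes was not computed.

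Slc11a1 encodes Nramp1, a metal transporter of the phagosome membrane. Its brightest probe read 11.94, 12.14, 12.14 and 12.26 in HFD-ED, 12.28, 11.99, 12.12 and 12.33 in HFD-CO, and 12.24, 12.26, 12.39 and 12.10 in control. The diets overlapped, and the difference of HFD-ED from control was -0.13 (interval -0.32 to 0.069, adjusted p = 0.689). HFD-CO differed from control by -0.069, and by -0.19 without the 2 HFD-CO mice with high pancreatic genes (adjusted p = 0.999). The next probe on the same transcript record gave another picture, with 9.99, 9.94, 9.68 and 10.09 in HFD-ED, 10.25, 9.96, 10.10 and 10 in HFD-CO, and 10.44, 10.44, 10.62 and 10.27 in control. On it every mouse of either high fat diet was below every control mouse. HFD-ED differed from control by -0.52 (SE 0.097, interval -0.73 to -0.30, unadjusted p = 0.000261, adjusted p = 0.204) and HFD-CO by -0.37 (unadjusted p = 0.00331, adjusted p = 1). The remaining 2 probes gave -0.051 and -0.085 for HFD-ED and 0.10 and 0.094 for HFD-CO, all with mice overlapping control. The probes of Slc11a1 thus disagreed on the size of the difference from control and, for HFD-CO, on its sign. HFD-ED differed from HFD-CO by -0.058, -0.15, -0.16 and -0.18, from the brightest probe to the dimmest. On the dimmest every HFD-ED mouse was below every HFD-CO mouse (adjusted p = 0.569 in limma). No share of all genes is given for that separation.

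**Figure D2:**
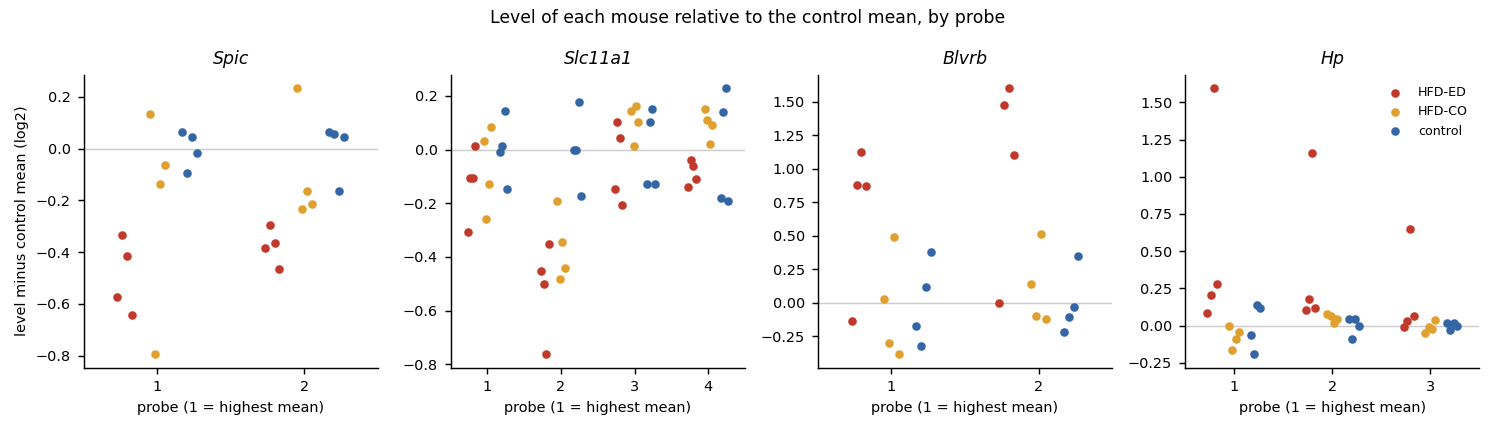
Level of each mouse minus the control mean of the same probe (log2, y axis, own scale per gene) for every probe of Spic, Slc11a1, Blvrb and Hp, ordered by mean; points are the 4 mice of HFD-ED, HFD-CO and control. Both probes of Spic have all HFD-ED mice below all control mice, while HFD-CO replicate 2 is below all HFD-ED mice on the first only. The second probe of Slc11a1 stands apart from the other 3, and the HFD-ED replicate far above the rest on each Hp probe is replicate 3.

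Across the 12 mice Slc40a1 correlated with Slc11a1 at r = 0.741 and with Spic at 0.687, and Spic with Slc11a1 at 0.644, the first probe of each being used. These are descriptions over mice that share diets; with the diet means removed the values were 0.729, 0.444 and 0.555. The 45 pairs of members ranged from -0.394 to 0.741 with a median of 0.12, and 4 pairs were above 0.5. The pair above 0.5 besides those named was Blvrb with Hp, at 0.716 (0.529 with the diet means removed). With the diet means removed, Slc40a1 with Blvra (0.732, from 0.363) and Cd163 with Vcam1 (0.587, from 0.447) were above 0.5 as well. The genes most like Slc40a1 among 7013 bright ones were Fgr (r = 0.916), Kctd6 (0.907) and Pdgfb (0.902). Those most like Spic were Rad1 (0.905), Hmgn1 (0.862) and Hspb8 (0.85), and those most like Slc11a1 were Primpol (0.922), Hps4 (0.885) and Myom1 (0.839).

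For members that varied together, and for Blvrb, the 250 bases before the start site are shown from the RefSeq promoter table (GRCm38.p6), in which 6 of the 10 members were matched (Slc11a1, Blvra, Cd5l, Cd163, Blvrb and Spic). Capitals mark matches, on either strand, to AGGAA (the core bound by ETS factors such as PU.1 and Spi-C), to AGATA or TGATA (GATA factors) or to CCNCNCCC (KLF factors). A match marks letters only and shows no binding. Of 32851 promoter windows of this length, 60.3% hold AGGAA, 40.0% a GATA match and 45.9% CCNCNCCC, so such matches are common. The window of Spic, chr10:88683024-88683273 on the minus strand, holds AGGAA once, 46 bases before the start, and 5 overlapping CCNCNCCC matches inside a single run of G. The window of Slc11a1, chr1:74374953-74375202 on the plus strand, holds AGGAA 247 and 151 bases before the start and CCNCNCCC 124 bases before it, with no overlap between them.
Spic: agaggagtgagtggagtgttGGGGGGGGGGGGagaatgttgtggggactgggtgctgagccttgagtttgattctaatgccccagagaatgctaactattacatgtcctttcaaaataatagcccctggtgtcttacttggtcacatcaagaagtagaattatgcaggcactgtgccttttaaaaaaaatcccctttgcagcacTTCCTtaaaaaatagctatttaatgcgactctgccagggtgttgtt
Slc11a1: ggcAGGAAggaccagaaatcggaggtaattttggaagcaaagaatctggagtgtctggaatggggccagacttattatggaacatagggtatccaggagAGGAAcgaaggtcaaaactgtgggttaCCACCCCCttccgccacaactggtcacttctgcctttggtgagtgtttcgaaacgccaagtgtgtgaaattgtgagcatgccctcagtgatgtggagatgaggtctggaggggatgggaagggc

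The other macrophage genes were read from a list of 29, of which 27 were measured. In HFD-ED against control 24 of the 27 were lower and 3 higher, with a median difference of -0.099, against -0.004 over all genes. None passed an adjusted p of 0.05 in limma and 5 had an unadjusted p under 0.05. Of all genes, 7.55% were lower and 5.69% higher at that level. In HFD-CO against control 17 were lower and 10 higher, with a median of -0.027. The smallest p was that of Mertk, a receptor for engulfing dying cells, at 9.07, 8.79, 9.0 and 9.06 in HFD-ED, 9.27, 8.98, 9.09 and 9.06 in HFD-CO, and 9.36, 9.36, 9.26 and 9.25 in control. Mertk in HFD-ED was below all control mice and differed by -0.33 (SE 0.072, adjusted p = 0.252). Its relative Axl was below all control mice in both HFD-ED and HFD-CO, with a difference of -0.21 in each (adjusted p = 0.298 for HFD-ED and 1 for HFD-CO). Both diets were set against the same control mice. Over all genes, 3.49% were lower in HFD-ED without overlap with control, and no such share is given for HFD-CO. The ficolin gene Fcna differed by -0.27 in HFD-ED (adjusted p = 0.429) and the lysosomal protease gene Ctsb by -0.10 (adjusted p = 0.41), both with overlap.

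The mean deviation of the 27 macrophage genes was 0.02, 0.06, -0.19 and -0.14 in HFD-ED replicates 1 to 4, 0.05, 0.01, 0.04 and -0.06 in HFD-CO, and 0.12, 0.11, 0.04 and -0.06 in control. The list did not order the mice as Slc40a1 did, since HFD-ED replicate 1 had the lowest Slc40a1 level of all and a list value above 0. HFD-ED replicates 2 to 4 also had the highest levels of red cell precursor genes, described with Blvrb below. In HFD-ED replicate 1 those genes were low, Slc40a1 was at 12.89 and Spic at 10.64. The part of the red cell precursor genes in the values of Slc40a1 and Spic was not tested. In whole spleen, fewer cells of a type and less RNA per cell cannot be told apart.

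Lists of 6 marginal zone macrophage genes and 13 genes of red cell uptake held no gene past the threshold either. The marginal zone list had 3 higher and 3 lower in HFD-ED against control, with a median of -0.006. Its gene with the smallest p, Siglec1 (sialoadhesin, a marker of metallophilic macrophages), differed by -0.089 (adjusted p = 0.422). The uptake list, which shares Mertk, Sirpa and Timd4 with the macrophage list, had 4 higher and 9 lower, with a median of -0.095. In that list Gas6, the bridging ligand of Mertk and Axl, was below all control mice by -0.19 (adjusted p = 0.48), against a background of 3.49% of all genes. The scavenger receptor gene Stab1 was higher by 0.38 (adjusted p = 0.403).

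Hmox1 encodes heme oxygenase 1, the inducible enzyme that opens haem. Its levels were 9.01, 10.45, 8.83 and 9.69 in HFD-ED, 8.47, 8.69, 8.84 and 10.09 in HFD-CO, and 8.97, 9.79, 8.90 and 9.93 in control. Each diet held both high and low mice: replicates 2 and 4 were high in HFD-ED and control, and replicate 4 was high in HFD-CO. The spread within diets was 0.67 (SD), a value exceeded by 1.13% of 7014 bright genes. HFD-ED differed from control by 0.095 (SE 0.44, interval -0.87 to 1.06, adjusted p = 0.972), HFD-CO from control by -0.37 (interval -1.34 to 0.59) and HFD-ED from HFD-CO by 0.47 (interval -0.49 to 1.43). Each interval reached past 1 log2 unit in one direction, so a difference of that size was within the error of these arrays. Single mice moved all of these values. HFD-ED against control was -0.22 without HFD-ED replicate 2 and 0.32 without HFD-ED replicate 3. With 1 mouse left out, HFD-CO against control ran from -0.73 (without HFD-CO replicate 4) to -0.19 (without HFD-CO replicate 1), and HFD-ED against HFD-CO from 0.15 (without HFD-ED replicate 2) to 0.82 (without HFD-CO replicate 4). Without the 2 HFD-CO mice with high pancreatic genes they were -0.63 and 0.73. The gene was carried by 1 probe. The genes most like it over the 12 mice were Hectd3 (r = 0.919), Tmem134 (0.863) and Tap2 (0.838).

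Hmox1 is regulated by the transcription factors Nrf2 and Bach1. A list of 16 genes held these factors, their partners and other genes they regulate, and 14 were measured. In HFD-ED against control 7 were higher and 7 lower, none passed and 3 had an unadjusted p under 0.05. The shares of all genes at that level were 7.55% lower and 5.69% higher. Gclm, a subunit of the enzyme that starts glutathione synthesis, was at 8.36, 10.38, 10.72 and 9.79 in HFD-ED, 8.71, 8.59, 9.46 and 8.43 in HFD-CO, and 8.34, 8.52, 8.84 and 9.09 in control. HFD-ED replicates 2 to 4 were above all other mice, while replicate 1 was among the lowest, and the difference from control was 1.12 (SE 0.44, adjusted p = 0.432). This order of mice was not that of Hmox1, where HFD-ED replicate 3 was low. Gclm was highest in the mice with the highest red cell precursor genes. Those genes had mean deviations of 0.87, 1.47 and 0.77 in HFD-ED replicates 2 to 4, 0.37 in HFD-CO replicate 3 and -0.58 in HFD-ED replicate 1. Their part in the Gclm values was not tested.

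Blvra and Blvrb encode the biliverdin reductases. Blvra was at 9.73, 10.23, 10.22 and 10.03 in HFD-ED, 10.03, 10.07, 9.90 and 10.12 in HFD-CO, and 9.94, 10.06, 9.94 and 10.04 in control. The diets overlapped fully, and HFD-ED differed from control by 0.058 (interval -0.16 to 0.27, adjusted p = 0.907). HFD-CO differed from control by 0.034 (interval -0.18 to 0.25).

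Blvrb, which is also abundant in red cells as flavin reductase, was at 11.72, 12.73, 12.98 and 12.72 in HFD-ED, 11.88, 11.55, 12.34 and 11.47 in HFD-CO, and 11.68, 11.53, 11.97 and 12.23 in control. HFD-ED replicates 2, 3 and 4 were above all other mice, whereas HFD-ED replicate 1 lay within the range of both other diets. Blvrb averaged 12.54 in HFD-ED, 11.81 in HFD-CO and 11.85 in control. The difference of HFD-ED from control was 0.68 (SE 0.28, interval 0.062 to 1.30, 1.6 times the control level), with an unadjusted p of 0.0341 and an adjusted p of 0.446 in limma. HFD-ED differed from HFD-CO by 0.73 (interval 0.11 to 1.35, adjusted p = 0.49), and HFD-CO from control by -0.046 (interval -0.67 to 0.57). The dimmer probe gave 1.04 for HFD-ED against control (adjusted p = 0.332) and 0.93 against HFD-CO (adjusted p = 0.456). Without HFD-ED replicate 1 the brighter probe gave 0.95 (adjusted p = 0.0817) and 1.0 (adjusted p = 0.0917), still short of the threshold.

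The genes most like Blvrb were Sptb (r = 0.995), Nfe2 (0.993) and Car2 (0.991), all known from red cell precursors. Sptb, the gene of red cell spectrin, was at 8.32, 11.03, 11.70 and 10.83 in HFD-ED, 8.72, 7.86, 9.84 and 8.03 in HFD-CO, and 8.11, 7.93, 9.07 and 9.86 in control, which is the pattern of Blvrb in a wider range. A list of 24 erythroid genes, 20 of them measured and Sptb and Car2 among them, had mean deviations of -0.58, 0.87, 1.47 and 0.77 in HFD-ED replicates 1 to 4, -0.33, -0.78, 0.37 and -0.65 in HFD-CO, and -0.63, -0.68, -0.10 and 0.25 in control. In HFD-ED against control all 20 were higher (median 0.953), none passed an adjusted p of 0.05 in limma and 9 had an unadjusted p under 0.05. At that level 5.69% of all genes were higher. Blvrb thus moved with the erythroid genes mouse by mouse. Their part in its difference was not tested.

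The promoter window at the first listed start site of Blvrb, chr7:27447728-27447977 on the plus strand, is shown for its matches to CCNCNCCC, in capitals, 236, 221, 154 and 135 bases before the start and without overlap. It holds no match to the ETS or GATA letters on either strand, while the window at its other start site holds a single GATA match.
Blvrb: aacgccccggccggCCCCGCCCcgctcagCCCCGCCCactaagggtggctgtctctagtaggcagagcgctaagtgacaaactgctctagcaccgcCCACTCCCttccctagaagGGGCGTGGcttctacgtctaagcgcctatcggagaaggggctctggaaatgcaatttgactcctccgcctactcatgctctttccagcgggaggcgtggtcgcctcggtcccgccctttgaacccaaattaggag

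**Figure D3:**
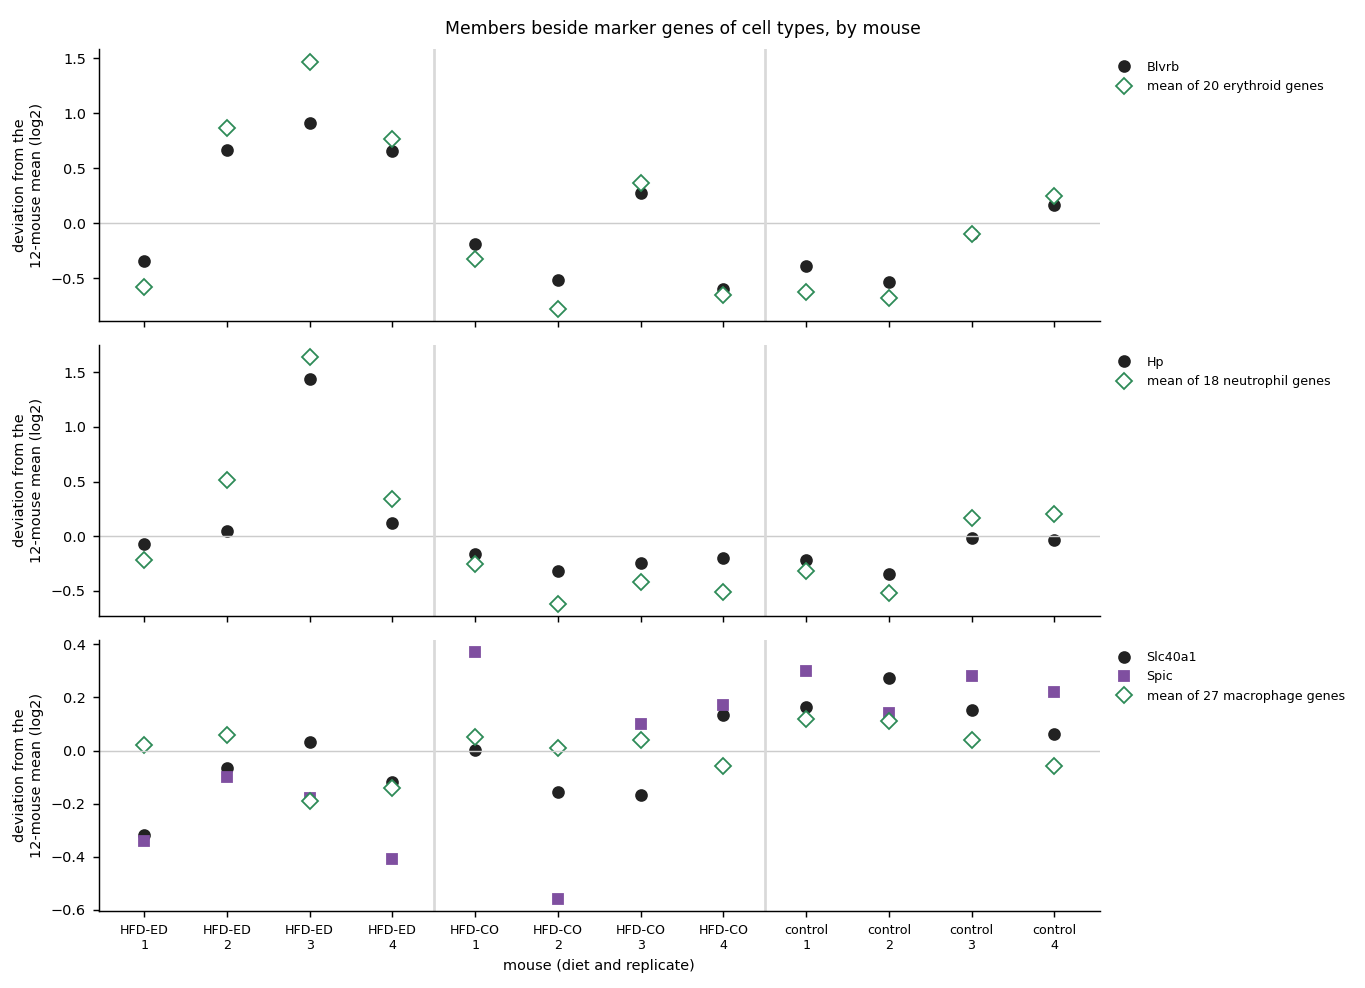
Deviation of each mouse from the 12-mouse mean (log2) for Blvrb with 20 erythroid genes, Hp with 18 neutrophil genes, and Slc40a1 and Spic with 27 macrophage genes; filled symbols are members, open diamonds list means, and mice run from HFD-ED through HFD-CO to control. Blvrb and Hp move with their lists, and HFD-ED replicate 1 has low Slc40a1 and Spic beside a macrophage list value of 0.02.

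The scavenger proteins of hemoglobin are haptoglobin, made by Hp, and its receptor, made by Cd163. Hp was at 7.86, 7.98, 9.37 and 8.05 in HFD-ED, 7.77, 7.61, 7.68 and 7.73 in HFD-CO, and 7.71, 7.58, 7.91 and 7.89 in control. HFD-ED replicate 3 stood far above the other 11 mice, and the lowest HFD-ED mouse was still above the highest HFD-CO mouse. Without overlap and higher in HFD-ED than in HFD-CO was 1 of 10 members, Hp, against 1.93% of all genes. HFD-ED differed from HFD-CO by 0.62 (SE 0.27, interval 0.018 to 1.22, adjusted p = 0.525) and from control by 0.54 (interval -0.055 to 1.14, adjusted p = 0.533). Without HFD-ED replicate 3 the differences were 0.27 and 0.19. All 3 Hp probes had the highest level in HFD-ED replicate 3, at 9.37, 8.47 and 7.90. On the next brightest probe every HFD-ED mouse was above every HFD-CO and control mouse, whereas on the dimmest the diets overlapped. Those probes differed between HFD-ED and HFD-CO by 0.34 (adjusted p = 0.641 in limma) and 0.20 (adjusted p = 0.659).

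The genes most like Hp were Cd177 (r = 0.984), Retnlg (0.982) and Trem3 (0.978), of which Cd177 and Retnlg are known from neutrophils. HFD-ED replicate 3 stood apart there too, as Retnlg was at 10.71 in HFD-ED replicate 3 and between 7.45 and 8.47 in the other mice. A list of 18 neutrophil genes, all measured and including Cd177 and Retnlg, had mean deviations of -0.22, 0.51, 1.64 and 0.34 in HFD-ED replicates 1 to 4, -0.25, -0.62, -0.42 and -0.51 in HFD-CO, and -0.32, -0.52, 0.17 and 0.20 in control. In HFD-ED against HFD-CO all 18 were higher (median 0.982), none passed in limma and 14 had an unadjusted p under 0.05. At that level 6.07% of all genes were higher. The part of these cells' genes in the Hp values was not tested. Hp is also made in liver. The 7 liver plasma protein genes listed differed by a median of -0.014 in HFD-ED against HFD-CO and of 0.043 in HFD-ED against control, and their part in the Hp values was not tested either.

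Cd163 was at 8.68, 8.91, 8.64 and 8.43 in HFD-ED, 8.54, 8.45, 8.48 and 8.52 in HFD-CO, and 8.50, 8.71, 8.27 and 8.36 in control. The HFD-ED mean of 8.66 was above 8.50 in HFD-CO and 8.46 in control, with overlapping mice. HFD-ED differed from control by 0.20 (SE 0.11, interval -0.029 to 0.44, adjusted p = 0.55) and from HFD-CO by 0.17 (interval -0.064 to 0.40). Without HFD-ED replicate 2 these were 0.12 and 0.085. The direction was thus opposite to that of Slc40a1 and Spic, though neither side passed the test. The genes most like Cd163 were Cdc16 (r = 0.913), Dld (0.859) and Vps26b (0.826).

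Vcam1, an adhesion molecule on red pulp macrophages and on endothelium, was at 12.91, 12.75, 12.87 and 12.50 in HFD-ED, 12.88, 12.60, 12.73 and 12.58 in HFD-CO, and 12.93, 12.91, 12.63 and 12.78 in control. The mice of the 3 diets overlapped throughout. HFD-ED differed from control by -0.053 (interval -0.28 to 0.17, adjusted p = 0.92) and HFD-CO from control by -0.12 (interval -0.34 to 0.11). The gene most like it was Sorl1 (r = 0.942). Cd5l, a secreted macrophage protein also called AIM, was at 7.0 to 7.08 in HFD-ED, 7.05 to 7.10 in HFD-CO and 7.0 to 7.10 in control. All its values lay under the array median of 7.14, so the probe gave no level from which diets could be compared.

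**Figure D4:**
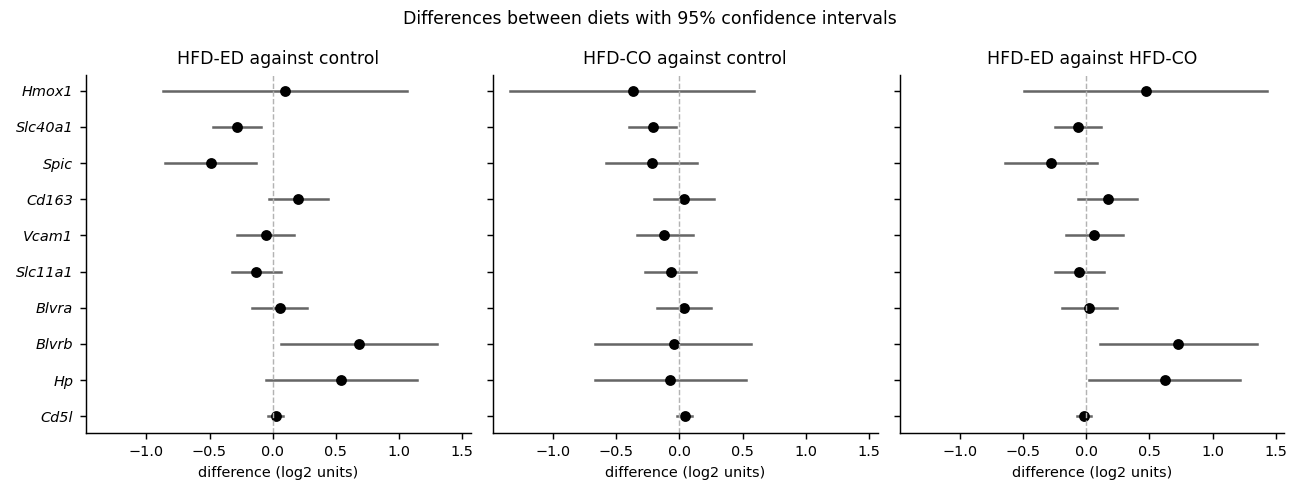
Difference in log2 level (x axis) with its 95% confidence interval for the 10 genes in the 3 comparisons of HFD-ED with control, of HFD-CO with control and of HFD-ED with HFD-CO; positive is higher in the diet named first. In HFD-ED against control the intervals of Slc40a1 and Spic lie below 0 and that of Blvrb above 0, before adjustment for the number of probes.

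Other genes of haem and iron handling, 28 in all and each measured, had 16 higher and 12 lower in HFD-ED against control, with a median difference of 0.004. None passed in limma, and 3 had an unadjusted p under 0.05, where 7.55% of all genes were lower and 5.69% higher. Tfrc, the transferrin receptor through which red cell precursors take up iron, was at 9.88, 11.93, 12.78 and 11.81 in HFD-ED, 10.04, 9.13, 11.07 and 9.35 in HFD-CO, and 9.41, 9.18, 10.61 and 11.09 in control. It followed the mice with high erythroid genes, and its difference from control was 1.53 (SE 0.66, adjusted p = 0.467). Trf, the gene of transferrin, was at 10.12, 10.20, 10.11 and 9.80 in HFD-ED, 10.38, 10.30, 10.58 and 10.32 in HFD-CO, and 10.48, 10.48, 10.59 and 9.98 in control. Trf in HFD-ED differed from HFD-CO by -0.34 (adjusted p = 0.49 in limma) and from control by -0.32 (adjusted p = 0.441). Ftl1, the light chain of the iron store ferritin, was below all control mice in HFD-ED, by -0.18 (interval -0.36 to 0.0058, adjusted p = 0.502). Over all genes, 3.49% were lower in HFD-ED without overlap with control.

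**Figure D5:**
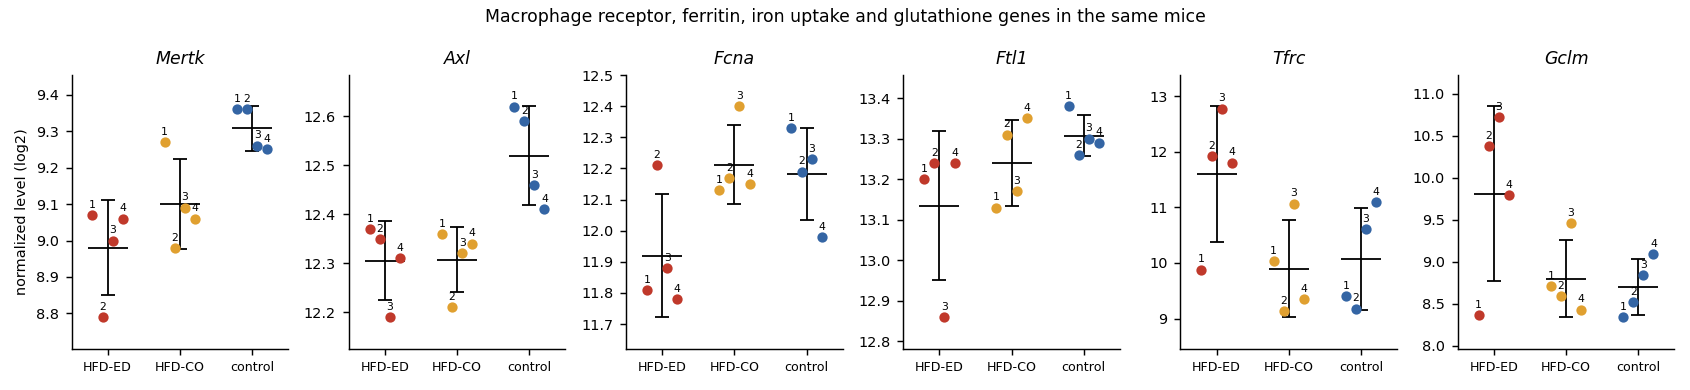
Normalized log2 level (y axis, own scale per gene) of Mertk, Axl, Fcna, Ftl1, Tfrc and Gclm in the 4 mice of HFD-ED, HFD-CO and control; numbers are replicates, and bars are mean ± SD. Mertk, Axl and Ftl1 are lower in all HFD-ED mice than in all control mice, and Tfrc and Gclm are high in HFD-ED replicates 2 to 4.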

How the data were processed

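Spleen RNA of 12 mice was hybridized to Illumina MouseWG-6 v2.0 BeadChips. The authors read bead intensities in GenomeStudio and applied a variance-stabilizing transformation and quantile normalization in lumi (version 2.18.0 per the submitters' processing notes), and the deposited log2 values were used without further normalization. The transformation compresses differences of dim probes. Of 45281 probes, 34885 carried 1 gene symbol (19057 genes). A gene was represented by its brightest probe, and bright genes had a mean of at least 7.5. The diets were fitted together in limma 3.58.1 (R 4.3.3; lmFit and eBayes, two-sided) and adjusted by Benjamini-Hochberg over all probes, with calls at an adjusted p of 0.05. The number of arrays limits the precision. Each p-value weighs a difference between diets against the spread of mice within diets, moderated over all probes. The mice had been selected by weight and plasma lipids, so that spread may not be that of unselected mice.

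The members and lists were chosen with earlier results of these data known. Named besides the members were up to 4 genes per list with the smallest p in HFD-ED against control, and the 3 genes most correlated with each member. Genes picked by p are more apt to be without overlap between diets. The share of all genes without overlap is given only for HFD-ED below control and HFD-ED above HFD-CO. Cell type lists covered erythroid, neutrophil, monocyte, endothelial and stromal, liver, adipocyte and pancreatic genes. Alternatives were blocking on the replicate number, other variance models, array weights, filters, probes and normalizations, fits of 2 diets alone, and leaving out each mouse.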

Additional observations from a re-analysis of the deposited data

Results flagged for a closer look

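Hp in HFD-ED replicate 3 was at 9.37, against 7.86 to 8.05 in the other HFD-ED mice. Its gap to the nearest of them was 0.878 of the range of that diet, above the critical value of Dixon's test for 4 samples. Of 30 groups examined (10 genes in 3 diets) this was the 1 so marked, and chance marks about 1 in 20. The same mouse had the highest level on all 3 Hp probes and the highest neutrophil list value, 1.64.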

How the results depend on the processing

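Across 26 alternatives, 720 values of members were recomputed. None passed an adjusted p of 0.05, the smallest being 0.0817 (Blvrb in HFD-ED against control without HFD-ED replicate 1), and 689 kept their direction. Signs changed in 31. On other probes these were, in HFD-ED against control, Blvra -0.0077, Cd163 -0.032, Slc40a1 0.017 and Vcam1 0.0096. In HFD-CO against control they were Blvrb 0.11, Cd163 -0.018, Hp 0.048, Slc11a1 0.10 and 0.094, and Slc40a1 0.0048, and the mean of all Blvrb probes gave 0.032. In HFD-ED against HFD-CO they were Blvra -0.011, Cd163 -0.014 and Slc40a1 0.012. Without the 2 HFD-CO mice with high pancreatic genes, an alternative chosen after seeing the data, HFD-CO against control gave -0.0086 for Blvra and 0.089 for Blvrb, and HFD-ED against HFD-CO gave 0.068 for Slc11a1 and 0.049 for Slc40a1.

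With 1 mouse left out, ranges that crossed 0 were, in HFD-ED against control, Blvra -0.0022 to 0.17, Hmox1 -0.22 to 0.32 and Vcam1 -0.11 to 0.033. In HFD-CO against control they were Blvrb -0.22 to 0.08 and Cd163 -0.028 to 0.12, and in HFD-ED against HFD-CO Blvra -0.036 to 0.13 and Slc11a1 -0.12 to 0.0015. Slc40a1 and Spic in HFD-ED against control stayed at -0.33 to -0.21 and -0.55 to -0.44.

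Over all probes, 0 were called in HFD-ED against control (4620 at an unadjusted p under 0.05), but 3 genes with 1 probe per gene, and 0 to 87 probes with 1 mouse left out, the highest without HFD-ED replicate 1. In HFD-ED against HFD-CO the single call became 0 with the replicate block, an intensity trend, dim probes left out, cyclic loess, only the 2 diets compared, or the 2 HFD-CO mice left out, and ranged from 0 to 46 with 1 mouse left out, the highest again without HFD-ED replicate 1. HFD-CO against control stayed at 0 in every alternative (2072 at an unadjusted p under 0.05). The cause was not tested.

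No clear pairing of the mice by replicate number was seen. Of 12 same-numbered pairs 4 correlated above 0.1 (range -0.28 to 0.394), and 3 of 12 mice correlated best with their own number. So few mice could not exclude a pairing. With the replicate block the smallest adjusted p of a member was 0.337 (Spic in HFD-ED against control).

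Leaving out dim probes removed Cd5l. Signal over background limits Cd5l and the dim probes of Slc40a1, Cd163, Blvra, Vcam1 and Hp.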

Other observations

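Cxcl12, the chemokine of stromal cells that holds blood precursors in place, was lower than every control mouse in all 4 HFD-ED and all 4 HFD-CO mice. Its levels were 11.77, 12.02, 11.93 and 11.89 in HFD-ED, 12, 11.90, 11.94 and 12.08 in HFD-CO, and 12.32, 12.17, 12.12 and 12.21 in control. HFD-ED differed from control by -0.30 (SE 0.059, adjusted p = 0.207 in limma) and HFD-CO by -0.23 (adjusted p = 1), so neither passed. Cxcl12 was named because it had the smallest p of its list in HFD-ED against control. Over all genes, 3.49% were lower in HFD-ED without overlap with control, and no such share is given for HFD-CO. Both diets were set against the same control mice, so these comparisons are not independent. In the same endothelial and stromal list of 14 genes, 10 were lower and 4 higher in HFD-ED against control, with a median of -0.078. Adipoq, the adipocyte hormone adiponectin, was at 7.95, 8.38, 7.59 and 7.57 in HFD-ED, 8.10, 8.31, 8.28 and 8.61 in HFD-CO, and 8.33, 7.20, 7.63 and 7.64 in control. HFD-CO differed from control by 0.62 (adjusted p = 1) and HFD-ED by 0.17 (adjusted p = 0.884 in limma). The 7 adipocyte genes measured had 4 higher and 3 lower in HFD-CO against control, with a median of 0.04. In HFD-ED against control 5 were higher and 2 lower, with a median of 0.001. The 7 pancreatic acinar genes all had higher means in HFD-CO than in control, with a median of 1.534. That list was at 1.59 and 4.98 in HFD-CO replicates 1 and 4, but at -0.94 and -0.96 in replicates 2 and 3. None of these genes was past the threshold. The 8 monocyte genes measured had 6 higher and 2 lower in HFD-ED against control, with a median of 0.024 and none past the threshold.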
